A study of Mus musculus with 2 samples.

Results

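The genes described here are 10 members of the Notch pathway in mouse B lymphoma cells: the receptors Notch1, Notch2, Notch3 and Notch4, the receptor protease Adam10, the nuclear partners Rbpj and Maml1, and the target genes Hes1, Dtx1 and Nrarp. They are 10 of 51840 genes in the deposited table and were picked by name, knowing that Notch1 stood several-fold higher in the library labelled Lig4-/-. The differences among these members are therefore a description and carry no test. RNA was sequenced from CH12F3, a mouse B cell lymphoma line used to study antibody class switching, and from a CH12F3 line labelled Lig4-/-, named for the loss of DNA ligase IV, which seals breaks in nonhomologous end joining. Both lines were grown in the same serum-containing RPMI medium, and no stimulus is named. The sources used here do not say whether the labelled line is a single clone. Each line has 1 library, so no spread between replicates exists, and every difference below separates these libraries rather than the genotypes.

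Notch receptors are surface proteins that act as their own signal carriers. A ligand of the Delta or Jagged family on a neighbouring cell exposes the receptor to cleavage by ADAM10, gamma-secretase then frees the intracellular part, and this part joins the DNA-binding protein RBPJ and a Mastermind coactivator in the nucleus to switch on targets such as the Hes genes, Dtx1 and Nrarp. In lymphocytes, Notch1 directs T lineage commitment, and Notch2 directs the marginal zone fate of B cells.

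Values are FPKM, fragments scaled to transcript length and library size, so levels of different genes were set side by side within a library. The log2 ratio is that of FPKM + 1, the library labelled Lig4-/- over CH12F3. A gene with a mean of at least 1 FPKM over the libraries was called expressed, and 2-fold means a log2 ratio of at least 1 in either direction. A gene under 1 FPKM in 1 library can thus pass through the library where it is higher. Over 11437 expressed genes the median log2 ratio was 0.17, so that is the level against which the ratios below stand. Of these genes 8567 were within 2-fold, which is the background wherever genes below are said to be within 2-fold. Transcripts poor in GC were generally higher in the library labelled Lig4-/-, with Spearman's rho of -0.64 across genes, which are not independent replicates. For expressed members a value adjusted with a smooth curve on transcript GC content is therefore given as well. Comparisons of level between different genes are not adjusted for GC content, and the part of the trend in them was not tested. Depth is unknown, and no counting interval can be given. The targeted gene, Lig4, was listed at 0.13 FPKM in CH12F3 and 0.64 FPKM for the library named for its loss, so it does not check the label. All 10 B cell markers examined were expressed in both libraries. Markers of other cells are given at the end.

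Among the receptors, Notch1 was the main transcript in both lines and was 3.94 times as abundant in the library labelled Lig4-/-. Notch1 (ENSMUSG00000026923) lies on chromosome 2, positions 26457903 to 26516663 (minus strand; all positions are those of GENCODE M21, build GRCm38), and its longest annotated transcript has 34 exons and 9488 bases. It was at 10.1 FPKM in the CH12F3 library and 39.7 FPKM in that labelled Lig4-/-, a log2 ratio of 1.88. In rank, Notch1 went from the middle of the expressed genes to their upper part: it stood at percentile 47.7 of FPKM in the parent line and at 75.6 in the library labelled Lig4-/-. A percentile within a library does not depend on how the libraries are scaled to each other. In these bulk samples, fewer cells carrying a transcript and less RNA per cell cannot be told apart.

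The Notch1 ratio went against the GC trend of the libraries. Its transcript has a GC content of 57.1%, and the 1141 expressed genes of its GC decile had a median log2 ratio of -0.35, so most genes of like composition were somewhat lower in the library labelled Lig4-/-. Adjustment for GC content raised the Notch1 value to 2.21, and adding an adjustment for transcript length gave 1.99. In this decile 3 other genes had a ratio at least as high, named here after their values were seen. They were Adamts13, which encodes the protease of von Willebrand factor, at 13.1 and 57.4 FPKM, the haematopoietic repressor gene Gfi1b at 0.17 and 3.74 FPKM, and the small RNA Gm25735, listed at 0 for CH12F3 and at 9.44 FPKM in the other library. Gfi1b and Gm25735 were under 1 FPKM in CH12F3 and counted as expressed only through the other library. Across all chromosomes and compositions, 490 of 11437 expressed genes, or 4.28%, had a log2 ratio at least as high as Notch1. Notch1 was picked with its high value known, so nothing is read from its rank here or in the decile.

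**Figure D1:**
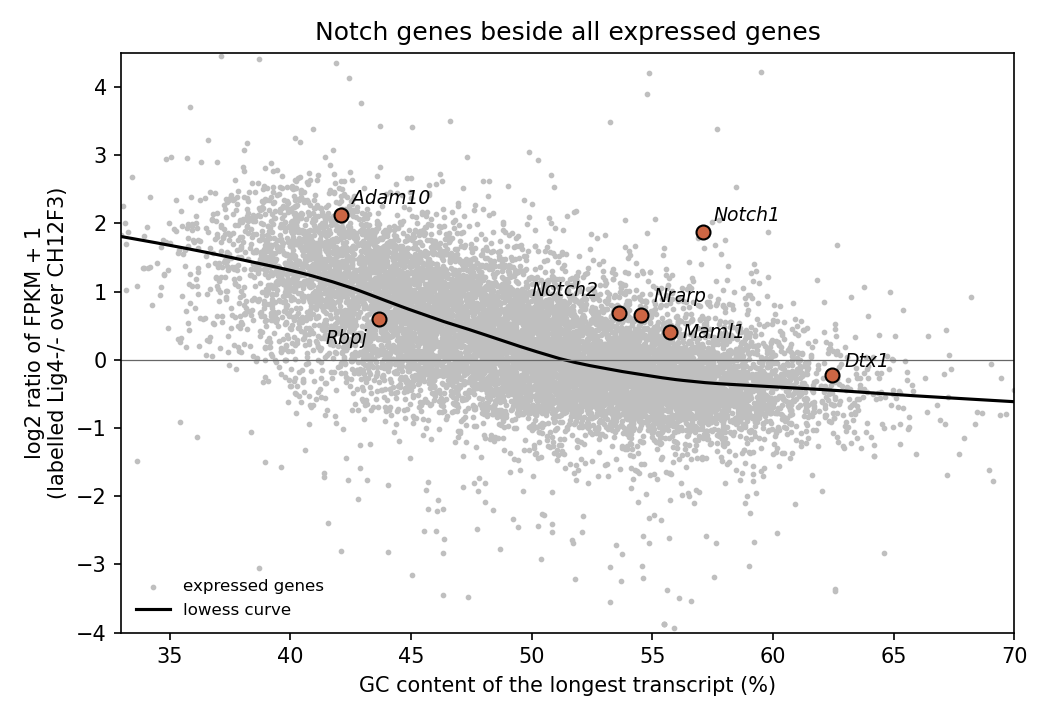
Log2 ratio of FPKM + 1 (labelled Lig4-/- over CH12F3) against GC content of the longest transcript in percent, 1 grey point per expressed gene, with the lowess curve in black and the 7 expressed Notch genes in orange. The axes leave out 37 of 11404 genes. Notch1 stands at 1.88 far above the curve at a GC content of 57.1%. Adam10 stands at 2.13 at a GC content of 42.1%, where its GC decile had a median log2 ratio of 1.07. In that decile 54 of 1140 genes had a ratio at least as high.

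Notch2, the receptor of marginal zone B cells (ENSMUSG00000027878, chromosome 3, positions 98013527 to 98150361, plus strand), was far below Notch1 in each line, at 1.11 FPKM in the CH12F3 library and 2.41 FPKM in that labelled Lig4-/-. Its log2 ratio was 0.69, or 0.86 after GC adjustment, so it was within 2-fold on the scale used here, although the plain ratio of FPKM was 2.17. Notch3 (ENSMUSG00000038146, chromosome 17, positions 32120820 to 32166852, minus strand) was at 0.06 and 0.02 FPKM. Notch4 (ENSMUSG00000015468, chromosome 17, positions 34564268 to 34588503, plus strand), best known from endothelium, was at 0.01 and 0.11 FPKM. These last 2 genes were not expressed in either library, and no fold is read from such values.

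Notch1 made up most of the receptor transcripts in both lines. Notch1 held 89.5% of the summed FPKM of the 4 receptors in the CH12F3 library and 94.0% in that labelled Lig4-/-, while Notch2 held 9.86% and 5.70%. The sum was 11.3 FPKM in the former and 42.3 FPKM in the latter. Relative to Notch2, Notch1 was 9.08 times as abundant in CH12F3 and 16.5 times as abundant in the other library.

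**Figure D2:**
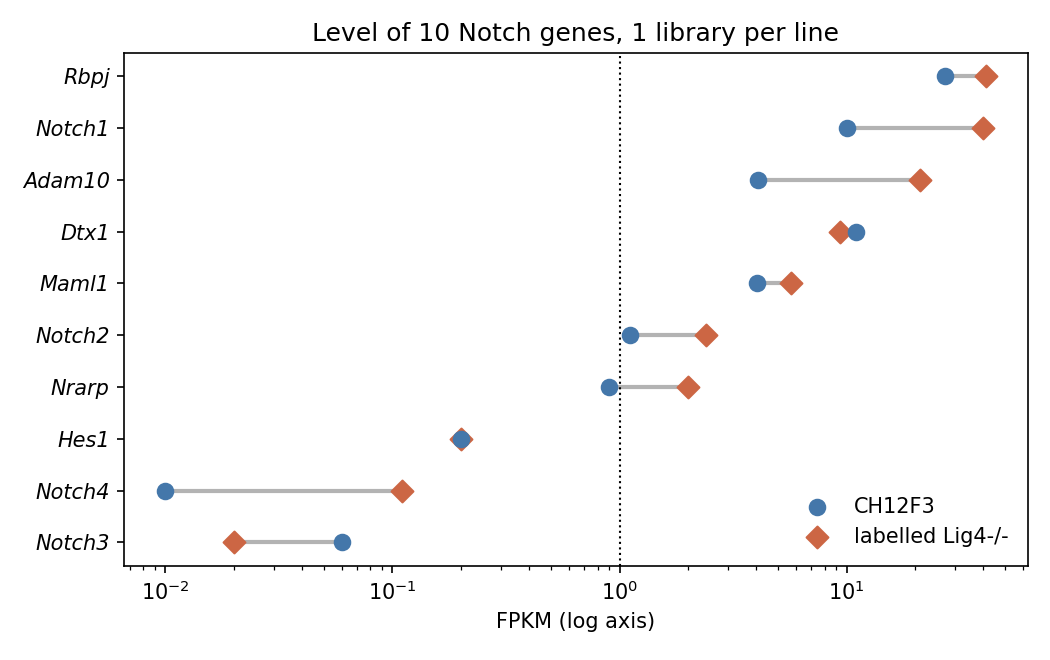
FPKM on a log axis of the 10 Notch genes in the CH12F3 library (blue circles) and the library labelled Lig4-/- (orange diamonds), ordered by mean, with a dotted line at 1 FPKM. The widest gaps among expressed genes are those of Adam10 (4.06 and 21.1 FPKM) and Notch1 (10.1 and 39.7 FPKM), and Hes1 is at 0.2 FPKM in both.

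Expressed genes around Notch1 were within 2-fold as deposited. Of the 14 other protein-coding genes within 200 kb, 9 were expressed, and none was 2-fold apart in either direction (median log2 ratio 0.20, range -0.54 to 0.71). Over all expressed genes, 8567 of 11437 were within 2-fold, so nothing is read from this count. The 200 kb window was chosen after the value of Notch1 was seen. The nearest gene, Sec16a, which shapes exit sites of the endoplasmic reticulum, was at 18.6 FPKM in the CH12F3 library and 25.2 FPKM in that labelled Lig4-/-. On the other side Egfl7, which encodes a secreted endothelial factor, was at 60.7 and 66.1 FPKM, and Agpat2, an enzyme of lipid synthesis, at 20.01 and 13.5 FPKM. After GC adjustment 1 neighbour, Gpsm1 (34.8 and 56.0 FPKM), reached 1.04. The adjusted median of the 9 expressed neighbours was 0.41, against -0.01 over all expressed genes, and this difference was not tested. Noncoding genes that overlap Notch1 on the opposite strand were low: 0610009E02Rik was at 1.5 and 2.04 FPKM, and Gm13568 was listed at 0 for CH12F3 and at 4 FPKM in the other library. The sources used here do not give the strand setting of the counting, so reads of Notch1 and of these partners cannot be told apart.

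**Figure D3:**
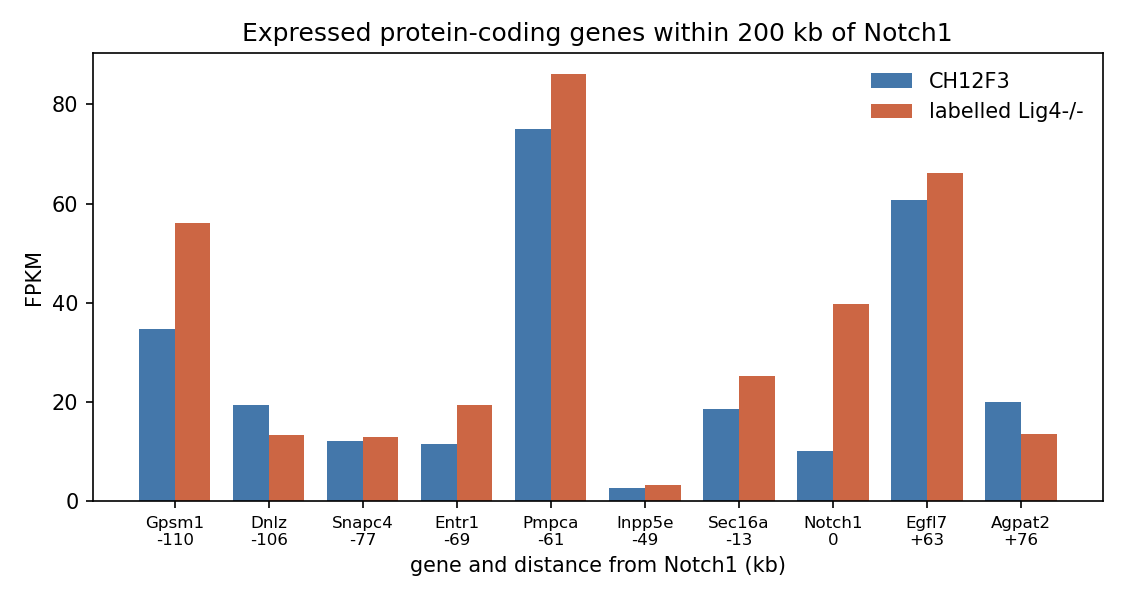
FPKM (bars from 0) of Notch1 and the 9 expressed protein-coding genes within 200 kb, in genome order with the distance from Notch1 in kb, for CH12F3 (blue) and the library labelled Lig4-/- (orange), 1 library each. Notch1 goes from 10.1 to 39.7 FPKM, while its neighbours are within 2-fold, as were 8567 of 11437 expressed genes.

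Adam10, which encodes the metalloprotease that makes the ligand-dependent cut in Notch receptors, had the highest log2 ratio of the members. Adam10 (ENSMUSG00000054693, chromosome 9, positions 70678997 to 70780229, plus strand) was at 4.06 FPKM in the CH12F3 library and 21.1 FPKM in that labelled Lig4-/-, a 5.20-fold ratio of FPKM and a log2 ratio of 2.13. Its rank among expressed genes went from percentile 28.3 to 59.8. Unlike Notch1, its transcript is poor in GC (42.1%), and its GC decile had a median log2 ratio of 1.07. The GC-adjusted value of Adam10 was 1.02, and 0.94 with length included, so its place beyond 2-fold ended with the second adjustment. In its decile 54 of 1140 genes, or 4.74%, had a ratio at least as high.

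The related protease gene Adam17, whose product also cuts Notch but is better known for releasing tumour necrosis factor, was at 18.0 and 28.7 FPKM, with a log2 ratio of 0.64 and a GC-adjusted value of -0.07. Adam17 was thus 4.44 times as abundant as Adam10 in CH12F3 and 1.36 times as abundant in the library labelled Lig4-/-. The tetraspanins of the TspanC8 group escort ADAM10 to the cell surface. Of the 5 listed, 4 were expressed and none of these was 2-fold apart, with Tspan14 at 16.1 and 24.0 FPKM, Tspan5 at 7.93 and 11.3 FPKM, Tspan33 at 5.46 and 5.01 FPKM, and Tspan17 at 6.35 and 3.53 FPKM.

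Of the 7 expressed members, Notch1 and Adam10 were beyond 2-fold on the higher side in the library labelled Lig4-/- and 0 on the lower side. Over all expressed genes 21% were that much higher and 4.09% that much lower, or 2402 and 468 genes, so the members' count is near the background. With the overall median log2 ratio centred at 0, the same 2 members stood beyond 2-fold, and over all expressed genes 1871 stood higher and 777 lower. After GC adjustment the same 2 members were beyond 2-fold upward, where 5.75% of all genes were, with 5.98% beyond it downward. Since these contrasts chose the members, nothing more is read from the counts. The members' median log2 ratio was 0.66, against 0.17 over all expressed genes.

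The start regions of Notch1, Adam10 and the target Nrarp are shown because Notch1 and Adam10 stood apart in RNA level while Nrarp, a direct target of RBPJ, was low, and the start region of Rbpj because it holds the letters that RBPJ binds. They come from RefSeq on GRCm38.p6 and are cut to bases upstream of a RefSeq start that lie outside annotated exons. Capitals mark the GC box letters GGGCGG or CCGCCC, and the RBPJ core letters TGGGAA or TTCCCA, on either strand, with overlaps counted.
Notch1, chr2:26503825-26504072, minus strand: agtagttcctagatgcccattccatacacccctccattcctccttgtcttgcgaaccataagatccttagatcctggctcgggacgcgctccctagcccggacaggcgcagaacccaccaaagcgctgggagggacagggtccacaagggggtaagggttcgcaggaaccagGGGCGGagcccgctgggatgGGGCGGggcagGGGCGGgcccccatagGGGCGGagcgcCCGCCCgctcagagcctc
Adam10, chr9:70678732-70678981, plus strand: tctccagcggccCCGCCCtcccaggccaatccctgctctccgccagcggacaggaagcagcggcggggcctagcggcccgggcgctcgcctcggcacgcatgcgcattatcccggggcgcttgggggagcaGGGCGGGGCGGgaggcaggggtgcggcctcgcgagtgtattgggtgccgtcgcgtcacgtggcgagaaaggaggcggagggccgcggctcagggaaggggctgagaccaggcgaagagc
Nrarp, chr2:25180508-25180757, plus strand: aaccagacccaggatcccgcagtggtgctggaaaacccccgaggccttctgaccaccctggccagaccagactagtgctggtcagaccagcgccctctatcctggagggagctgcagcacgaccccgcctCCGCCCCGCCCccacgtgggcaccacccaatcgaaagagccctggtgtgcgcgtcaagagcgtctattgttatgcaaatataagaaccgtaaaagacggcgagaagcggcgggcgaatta
Rbpj, chr5:53590096-53590213, plus strand: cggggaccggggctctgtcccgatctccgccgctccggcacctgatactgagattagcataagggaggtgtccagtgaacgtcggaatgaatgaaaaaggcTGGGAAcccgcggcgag

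These start regions were rich in GC whatever the composition of the transcript. Over the 250 bases before the start, GC content was 66.0% for Notch1, 74.0% for Adam10 and 61.2% for Nrarp, against a median of 52.4% over 32851 such windows. Notch1 had 5 matches to the GC box, Adam10 3 and Nrarp 2, and 32.7% of all windows held at least 1. Among the other members, Notch2 had 5 matches at a GC content of 72.0%, and Notch3, which was not expressed, 4 at 68.8%. Dtx1 had 3, Maml1 2, and Notch4 and Rbpj 0. The RBPJ core was not among the letters of the Notch1, Adam10 or Nrarp windows. It matched 2 times in the 250 bases before the first of the RefSeq starts of Rbpj, of which 1 match lies in the stretch shown, and 21.6% of all windows held it. A match is a description of letters and not evidence of binding.

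In the nucleus, the DNA-binding partner Rbpj was the most abundant member in both lines. Rbpj (ENSMUSG00000039191, chromosome 5, positions 53466152 to 53657362, plus strand) was at 27.1 FPKM in the CH12F3 library and 41.3 FPKM in that labelled Lig4-/-. Its log2 ratio of 0.59 lay within 2-fold and turned to -0.31 after GC adjustment, so no direction is given for it. Rbpj exceeded Notch1 by 2.68 times in CH12F3, whereas both were at nearly the same level (1.04 times) in the other library. These ratios are not adjusted for GC content, which was 43.7% for Rbpj and 57.1% for Notch1. Maml1, a Mastermind coactivator (ENSMUSG00000050567, chromosome 11, positions 50255634 to 50292311, minus strand), was at 4.04 and 5.68 FPKM, with a log2 ratio of 0.41, or 0.68 after GC adjustment. Its relatives Maml2, at 2.12 and 4.41 FPKM, and Maml3, at 0.81 and 2.19 FPKM, were also within 2-fold on the scale used.

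Of the histone acetyltransferase genes that serve the complex, Ep300 and Crebbp were higher in the library labelled Lig4-/-, whereas Kat2a (24.5 and 22.2 FPKM) and Kat2b (1.23 and 2.5 FPKM) were within 2-fold. Ep300, which encodes p300, was at 3.11 and 10.2 FPKM (1.44 as a log2 ratio, 1.41 when adjusted for GC content), and its relative Crebbp at 0.42 and 2.02 FPKM (1.09, GC-adjusted 1.12). Crebbp was under 1 FPKM in CH12F3 and passed the limit for expressed genes only through the other library. No weight is put on its ratio. Snw1, a cofactor also of splicing, had the highest FPKM of this group, at 58.9 and 52.0. Its log2 ratio was -0.18 as deposited and -1.32 after GC adjustment.

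Of the 3 target genes, only Dtx1 and Nrarp were expressed. Both were within 2-fold on this scale, as were 8567 of 11437 expressed genes, so nothing is read from this count. Hes1, the classical Notch target and a transcriptional repressor (ENSMUSG00000022528, chromosome 16, positions 30064384 to 30067796, plus strand), was listed at 0.2 FPKM in both libraries and was not expressed in either. Dtx1, which encodes the ubiquitin ligase Deltex and is induced by Notch in lymphocytes (ENSMUSG00000029603, chromosome 5, positions 120680202 to 120711927, minus strand), was at 11.02 FPKM in the CH12F3 library and 9.32 FPKM in that labelled Lig4-/-. Its log2 ratio was -0.22, and 0.23 after GC adjustment, so it too has no stable side of 0. Nrarp, an RBPJ target whose product dampens Notch signalling (ENSMUSG00000078202, chromosome 2, positions 25180758 to 25183339, plus strand), was at 0.9 and 2.0 FPKM. Its log2 ratio was 0.66 (GC-adjusted 0.87), although the plain ratio of FPKM was 2.22. Both FPKM values lie near the limit for expressed genes. With a pseudocount of 0.1 FPKM in place of 1, Nrarp at 1.07 and Notch2 at 1.05 passed 2-fold.

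In order of level, CH12F3 had Rbpj, Dtx1, Notch1, Adam10, Maml1, Notch2, Nrarp, Hes1, Notch3 and Notch4. Adam10 and Maml1, at 4.06 and 4.04 FPKM, were nearly level. The library labelled Lig4-/- had Rbpj, Notch1, Adam10, Dtx1, Maml1, Notch2, Nrarp, Hes1, Notch4 and Notch3. Notch1 and Adam10 thus passed Dtx1, while the order of Maml1, Notch2, Nrarp and Hes1 stayed the same. The orders are not adjusted for GC content, which was 42.1% for Adam10 and 62.5% for Dtx1. With 1 library per line, no spread tells which neighbours in these orders differ.

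The rest of the pathway was read from 12 role lists that hold 103 further genes, 74 of them expressed. These lists were written with earlier results of the data known. At least 2-fold higher values in the library labelled Lig4-/- were found for 20 genes and lower ones for 2, beside 21% and 4.09% of all expressed genes. The median log2 ratio was 0.48 as deposited, against 0.17 over all expressed genes, and 0.09 after GC adjustment. After that adjustment 7 of the 74 genes were higher and 4 lower, beside 5.75% and 5.98% of all expressed genes. With the overall median centred at 0, 13 were higher and 4 lower, beside 1871 and 777 of 11437 expressed genes.

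Of 8 ligand and ligand-like genes, Jag2 alone was expressed, at 10.1 FPKM in the CH12F3 library and 4.81 FPKM in that labelled Lig4-/- (log2 ratio -0.93, GC-adjusted -0.50). The Delta genes Dll1, Dll3 and Dll4 were at 0.36 FPKM or less in each library, and Jag1 was listed at 0 in both. The ubiquitin ligases that pull on ligands by endocytosis lay on opposite sides. Mib1 was at 3.07 and 13.4 FPKM (1.83, GC-adjusted 0.88) and Mib2 at 44.8 and 18.1 FPKM (-1.27, GC-adjusted -0.85). Neurl3, the most abundant of this list, was at 78.4 and 38.7 FPKM, just within 2-fold at -0.999.

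Genes that shape the receptor before it meets a ligand were mostly within 2-fold. So were 8567 of 11437 expressed genes, and nothing is read from this count. Furin, whose product makes the first cut during export, was at 60.2 and 56.1 FPKM. The fucosyltransferase gene Pofut1 was at 9.59 and 8.49 FPKM. Of the Fringe genes, whose products lengthen that sugar and tune ligand choice, Mfng was at 21.9 and 24.0 FPKM and Rfng at 15.0 and 10.6 FPKM, while Lfng was at 0.08 FPKM or less. The xylosyltransferase gene Gxylt1 was the 1 of 8 expressed genes beyond 2-fold, at 3.38 and 9.72 FPKM (1.29, GC-adjusted 0.59). Of all expressed genes, 21% were that much higher.

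Gamma-secretase, which makes the releasing cut, was abundant in each line, and none of the expressed subunits named here was 2-fold apart. Psenen was at 113 and 91.5 FPKM, Aph1a at 75.2 and 62.5 FPKM, Ncstn at 51.1 and 40.5 FPKM, and Psen2 at 37.5 and 26.7 FPKM. Aph1b was at 1.75 and 1.80 FPKM. Aph1c was at 1.27 and 0.1 FPKM, with a log2 ratio of -1.05 that became -1.87 after GC adjustment, and its mean lies under the limit for expressed genes. Aph1b and Aph1c are close copies, so reads could have been divided between them.

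Corepressors hold RBPJ targets silent without Notch. Of 15 expressed, 5 were beyond 2-fold upward and 0 downward in the library labelled Lig4-/-, beside 21% and 4.09% of all expressed genes. Levels ran from L3mbtl3, at 1.51 and 3.76 FPKM, to Hdac1, at 89.6 and 139 FPKM, and Ctbp2 was not expressed. Ncor1 was at 11.4 and 31.2 FPKM (1.37, GC-adjusted 1.05), and Kdm5a, a histone demethylase, at 5.6 and 20.8 FPKM (1.72, GC-adjusted 0.76). The deacetylase gene Hdac2 was at 15.5 and 46.0 FPKM (1.51, GC-adjusted 0.38), Cir1 at 2.77 and 9.47 FPKM (1.47, GC-adjusted 0.55), and Tbl1x at 13.3 and 28.9 FPKM (1.07, GC-adjusted 0.46). Ncor1 was the 1 gene of this list still beyond 2-fold after GC adjustment, where 5.75% of all expressed genes were that much higher.

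Beyond Hes1, Hes6 was the 1 expressed gene of the Hes and Hey repressors. Hes6, which in neural cells opposes Hes1 and is not itself a usual Notch target, was at 34.4 and 26.3 FPKM (-0.37, GC-adjusted 0.06). Hes2, Hes3, Hes5, Hes7 and Heyl were at 0.44 FPKM or less in each library, and Hey1 and Hey2 were listed at 0 in both. The Deltex relatives were within 2-fold, with Dtx2 the most abundant at 37.1 and 30 FPKM.

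Of 16 other genes linked to Notch, mostly in the T lineage, 10 were expressed. Of these, 2 were beyond 2-fold upward and 1 downward, beside 21% and 4.09% of all expressed genes, so the counts are near the background. Myc, the growth regulator that Notch1 drives in T cell leukaemia, was at 36.5 FPKM in the CH12F3 library and 90.7 FPKM in that labelled Lig4-/- (1.29, GC-adjusted 1.44). Gimap5, a survival gene of lymphocytes, was at 45.7 and 99.4 FPKM (1.11, GC-adjusted 0.60). Cdkn1a, which encodes the cell cycle inhibitor p21 and answers above all to p53, was at 157 and 36.3 FPKM (-2.08, GC-adjusted -1.87). Ccnd3, a cyclin gene, had the highest mean, at 157 and 108 FPKM. Cr2, which Notch2 supports in marginal zone B cells, was listed at 0 for CH12F3 and at 0.03 FPKM in the other library, and Ptcra, a Notch1 target of early T cells, was at 0.16 and 0.27 FPKM. Il2ra was at 7.32 and 4.63 FPKM (-0.56, GC-adjusted -1.37).

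Genes that restrain or degrade Notch held the largest share of higher values among the role lists with more than 1 expressed gene. Of 14 expressed, 9 were beyond 2-fold upward in the library labelled Lig4-/-, beside 21% of all genes, and 0 downward. The median GC content of these 14 was 46.0%, against 49.8% over all expressed genes. After GC adjustment 3 of the 14 were higher and 1 lower, beside 5.75% and 5.98% of all expressed genes. The ubiquitin ligase gene Itch was at 3.31 and 15.6 FPKM (1.94, GC-adjusted 0.84), and its relative Nedd4 at 22.9 and 77.2 FPKM (1.71, GC-adjusted 1.09). Numb, whose product diverts Notch to endocytosis, was at 4.33 and 10.96 FPKM (1.17, GC-adjusted 0.90), and the kinase gene Aak1 was at 4.2 and 10.4 FPKM (1.13, GC-adjusted 0.61).

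The ligase complex that destroys the freed intracellular part was mixed. Its substrate receptor Fbxw7 was at 5.67 and 7.90 FPKM (0.42, GC-adjusted -0.12). The scaffold Cul1 was at 10.4 and 43.1 FPKM (1.95, GC-adjusted 1.10) and Skp1a, the most abundant of the list by the mean of the libraries, at 49.1 and 145 FPKM (1.55, GC-adjusted 0.78). The RING subunit Rbx1 was at 95.1 and 73.0 FPKM (-0.38, GC-adjusted -1.44). The kinase module that marks the intracellular part for this complex comprised Ccnc, at 3.09 and 11.1 FPKM (1.56, GC-adjusted -0.09), and Cdk8, at 18.5 and 41.8 FPKM (1.14, GC-adjusted 0.08). The corepressor gene Bcor, at 11.1 and 24.9 FPKM, had a log2 ratio of 1.10 that became 1.23.

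**Figure D4:**
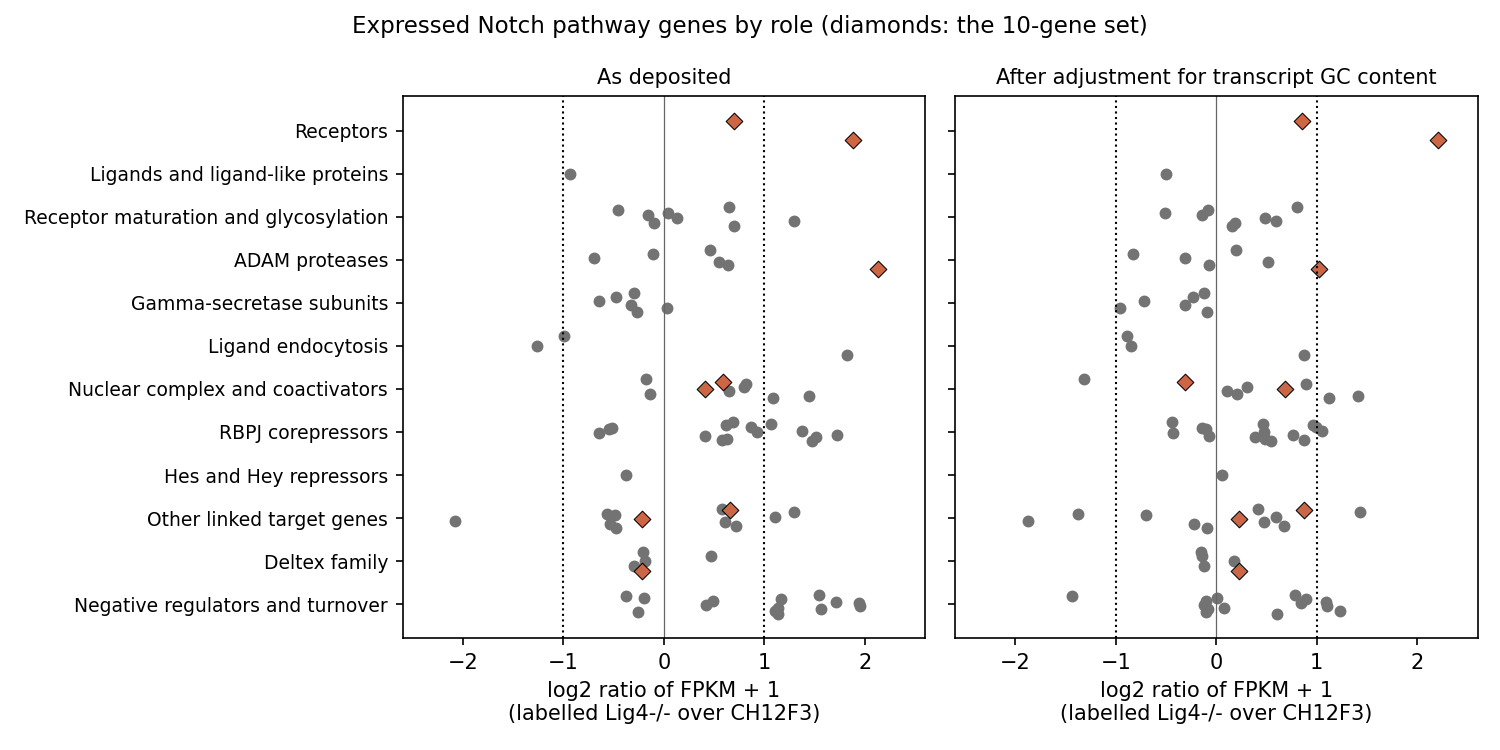
Log2 ratio of FPKM + 1 (labelled Lig4-/- over CH12F3) of each expressed Notch pathway gene by role, as deposited (left) and after adjustment for transcript GC content (right), with dotted lines at 2-fold and orange diamonds for the members. Notch1 moves from 1.88 to 2.21, Adam10 from 2.13 to 1.02, and the count of other genes beyond 2-fold upward goes from 20 to 7. Of all expressed genes, 21% before and 5.75% after adjustment were beyond 2-fold upward.

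The protein-coding genes closest to Notch1 in level in both libraries, by Euclidean distance of log2(FPKM + 1) over the 2 libraries among 21789 genes, were Ccng1, Mia2 and Qrich1. Ccng1 was at 10.5 and 40.0 FPKM (distance 0.05), Mia2 at 9.78 and 40.9 FPKM (0.06), and Qrich1 at 9.59 and 38.7 FPKM (0.08). Their transcripts were poorer in GC than that of Notch1, at 40.8%, 46.1% and 48.8%, and their GC-adjusted log2 ratios of 0.59, 1.37 and 1.63 were below its 2.21. With 2 libraries, such closeness says only that the levels were alike.

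Markers of other cells that carry Notch receptors were compared as well. The 14 T cell markers summed to 131 FPKM in the CH12F3 library and 73.3 FPKM in that labelled Lig4-/-, of which Cd5, also found on B-1 cells, made up 103 and 40.5 FPKM. Without Cd5 the sum was 28.9 and 32.9 FPKM. Of this list, 7 genes were expressed, 3 were listed at 0 for CH12F3 and 4 for the other library. Lck was at 15.3 and 20.3 FPKM and Trac at 1.55 and 2.89 FPKM. Cd247 was at 0.43 and 2.44 FPKM and Cd3d at 0.67 and 1.55 FPKM. Cd4 was at 7.42 and 2.64 FPKM and Lat at 2.42 and 2.32 FPKM. Of the 7 expressed genes, 4 were thus higher in the library labelled Lig4-/- and 3 lower. Over all expressed genes, 6663 of 11437 had a log2 ratio above 0, so nothing is read from these directions. Cd247 and Cd3d were under 1 FPKM in CH12F3 and counted as expressed only through the other library. Of the listed genes that were not expressed, Cd3g was at 0.81 and 0.39 FPKM and Zap70 at 0.14 and 0.33 FPKM. Cd3e, Cd8a and Cd2 were at 0.06 FPKM or less in each library, and Themis and Bcl11b were listed at 0 in both.

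The 10 myeloid markers summed to 5.26 and 9.99 FPKM. Of the list, 4 genes were expressed, 3 of them higher in the library labelled Lig4-/- and 1 lower. Over all expressed genes, 6663 of 11437 had a log2 ratio above 0, so nothing is read from this count. Lyz2 and Itgam were under 1 FPKM in CH12F3 and counted as expressed only through the other library. Csf1r had the highest mean, at 1.94 and 3.14 FPKM, and Lyz2 was at 0.69 and 4.07 FPKM (log2 ratio of 1.58, or 1.25 after GC adjustment). Itgam was at 0.98 and 1.49 FPKM, and Adgre1 went the other way, at 1.64 and 1.07 FPKM. Cd14, Elane and S100a9 were listed at 0 in both libraries. The 9 endothelial and fibroblast markers summed to 23.8 and 12.5 FPKM, almost all of it Pecam1 at 22.3 and 10.7 FPKM. Without Pecam1 the sum was 1.51 and 1.76 FPKM, and Kdr, Col3a1 and Dcn were listed at 0 in both. The part of these markers in the Notch1 result was not tested.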

How the data were processed

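The authors deposited FPKM values for 53873 features, 1 column per library, matched to samples by name. Per the submitters' processing notes, CASAVA and TopHat (no versions) were used with GRCh38, a human build, although 51912 features carry mouse Ensembl identifiers. The sources used here do not give the annotation or what made the FPKM. Symbols, positions, lengths and GC contents came from GENCODE M21 (GRCm38) by identifier (51633 matched, 279 kept under their identifier), and 72 rows sharing a symbol with a more abundant one were dropped. Log2 ratios used a pseudocount of 1 FPKM, which understates differences of low genes. The GC adjustment subtracted a lowess curve (fraction 0.3, statsmodels 0.14.6) of the log2 ratio against the longest transcript's GC content over 11404 expressed genes, and the length adjustment, added after the data were seen, a second curve on log2 length. The steps were tested on simulated data with a straight GC trend and 4-fold changes in genes with a mean of at least 5 FPKM. That setting does not cover smaller differences or genes of lower level, such as Notch2, Nrarp and Maml1.

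With 1 library per line there was no test. In low values of single-exon genes, the best of many trial steps put 34.3% and 38.9% of values within 0.1 of a whole fragment number, where chance gives 20% for a fixed step, so depth was not recovered. Members and lists were chosen with earlier results of these data known. The text names all members, expressed list genes at least 2-fold apart, the most abundant of each list, Lig4 and the 3 genes closest to Notch1. Further genes are examples named after their values were seen. A list gene that the rule could take in is not reported here.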

Additional observations from a re-analysis of the deposited data

How the results depend on the processing

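No paired analysis was possible because each line has 1 library. The log2 ratio of Notch1 stayed beyond 2-fold under every pseudocount, rescaling and adjustment run. The members at least 2-fold higher (2) became 4 with a pseudocount of 0.1 FPKM, which added Notch2 (1.05) and Nrarp (1.07), and 1 at a 4-fold threshold (Adam10) or after GC and length adjustment (Notch1). Of the other pathway genes, 20 higher and 2 lower became 10 higher with a pseudocount of 5 FPKM, 4 lower with 0.1 FPKM, 13 and 4 with the median log2 ratio set to 0, 7 and 4 after GC adjustment, 5 and 5 with length added, and 0 and 1 at 4-fold. Of all expressed genes, 2402 higher and 468 lower became 1104 and 252 with a pseudocount of 5 FPKM, 358 and 86 at 4-fold, 656 higher after GC adjustment, 611 higher with length added, and 1589 higher with a mean of at least 5 FPKM. Centring the median gave 1871 higher and 777 lower. The share of Notch1 was 90.1% and 94.3% over Notch1 and Notch2 only. Rbpj and Dtx1 changed side of 0 after GC adjustment. The direction of Notch3, Notch4 and Hes1 is not readable at values of 0.2 FPKM or less. Depth is unknown, so genes near 1 FPKM, such as Notch2 and Nrarp, are the least certain.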
